A study of Homo sapiens with 12 samples.

Results

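The regions described here are 1716 peaks of the MetDiff list, a list of sites bound by an antibody against 1-methylguanosine (m1G), that lie in 1 exon near the 3′ end of a protein-coding gene. A peak was taken when it had 1 exon block and its midpoint lay in the span of exactly 1 protein-coding gene of at least 5000 bases (RefSeq gene table, GRCh38), in the last 10% of that span read along the strand of the peak. They made up 1716 of 9585 MetDiff peaks (17.9%, 95% Wilson interval 17.1 to 18.7, counting error only) and carried 1244 Ensembl gene IDs and 1226 gene symbols by position. Beyond the authors' own peak calling, no measured value entered this choice. It was made with earlier results of these data known. The cells were PANC-1, a long-established human line of pancreatic ductal adenocarcinoma, and the question of the experiment was which messenger RNAs may carry m1G. Of the 12 libraries, 3 were m1G immunoprecipitates (IP) of cells transfected with siRNA against TRMT5, with the depletion lasting 4 days, and 3 were m1G IPs of control cells. The other 6 were the matching inputs, 3 from TRMT5-depleted and 3 from control cells. All were polyadenylated RNA of experiment 2 from 1 cell line. The labels call the control cells WT control, and the sources used here do not say what siRNA, if any, they received.

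The peaks come with no value per library, so nothing below compares knockdown with control, and depth could not be read. Each peak has the authors' own fold, taken to be that of IP over input because of its column in a layout that has no header, and the authors' false discovery rate (FDR). If the fold were one of another contrast, every fold below would mean something else. Peaks are regions of 1 list and not replicates, so shares and medians are given as descriptions beside those of all MetDiff peaks, with no test. Markers of the labelled cells were present in part: 4 of 7 ductal and epithelial markers (KRT8, KRT18, KRT19 and CDH1) had a MetDiff peak, while EPCAM, KRT7 and MUC1 had none, and 2 of 4 mesenchymal markers (VIM and CDH2) and 0 of 9 markers of acinar, islet, stellate, immune and endothelial cells had one. Over all protein-coding genes of at least 5000 bases it was 3586 of 16846, so 0 of 9 says little. A peak is not an expression level.

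m1G carries a methyl group on the edge of guanine that pairs with cytosine, and TRMT5 places it in tRNAs beside the anticodon, where it keeps the reading frame. The 3′ end of an mRNA holds the last part of the coding sequence, the stop codon, the 3′ untranslated region with its binding sites for microRNAs and proteins, and the poly(A) signal. In most mRNAs the last exon is the longest. The table used here gives gene spans without exons, so peaks are described by their distance from the end of the span and not as coding or untranslated.

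The sequence of the peaks themselves was not used here, except where a RefSeq promoter window (250 bases before to 50 after a gene's start, GRCh38.p14) or a microRNA overlapped a peak. Promoter windows reached into 31 of the peaks, and 20 of these 31 ran on the strand opposite to that of the gene they were placed in. The central 30 bases of 4 such peaks are shown 5′ to 3′ on the strand of the peak, with guanines in capitals. They were chosen because each midpoint lies before the start of a neighbouring gene. Each peak is at the 5′ edge, not the 3′ end, of the gene it was placed in.
SMYD4 peak, in the window of RPA1 (chr17:1829787-1829816, plus strand): ctGcGccctGGtctccctcccaGcGcccGc
FADS2 peak, in the window of FADS1 (chr11:61817060-61817089, minus strand): GGaGccaacGccGcGatGcccGcctGacGt
PSME4 peak, in the window of ACYP2 (chr2:53970922-53970951, plus strand): ccccttccctGGccGGcGtGctGctGGGcc
NCBP2 peak, in the window of NCBP2AS2 (chr3:196942472-196942501, plus strand): ctGcGcaGcGccttcaGGaGGccacccGac
They held 7, 10, 10 and 9 guanines. Over the 13 peaks whose central 30 bases lay in a window, the count of guanines was between 7 and 15 with a median of 10. Windows at gene starts are no random sample of the peaks, so this count does not describe the others.

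A microRNA hairpin on the strand of the peak overlapped 3 of the peaks that were searched. The mature forms that reach into a peak are shown with their seed, bases 2 to 8, in capitals, since microRNA genes inside host transcripts are a feature that the choice of the peaks did not use.
hsa-miR-4700-5p, in the peak of UNC119B: uCUGGGGAugaggacagugugu
hsa-miR-4700-3p, in the peak of UNC119B: cACAGGACugacuccucaccccagug
hsa-miR-4697-3p, in the peak of IGSF9B: uGUCAGUGacuccugccccuuggu
UNC119B encodes a lipid-binding trafficking protein, and its peak (chromosome 12, 120723093 to 120723242, plus strand) had a fold of 4.67 with an FDR of 7.41e-05. The whole of miR-4700-5p lay inside it, at 120723202 to 120723223, but only 10 of the 26 bases of miR-4700-3p. IGSF9B, a cell adhesion gene, had a fold of 4.0 at its peak (chromosome 11, 133898436 to 133898535, minus strand), which held all 24 bases of miR-4697-3p. The third hairpin, MIR7109, shared 4 bases with a peak of PISD, a phospholipid enzyme gene, that had a fold of 3.64. The 3 seeds differ from each other. Which transcript the signal at these peaks comes from was not tested, and mature microRNAs were not measured.

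More single-exon peaks lay in the last 10% of the gene span than in any other step of 10%. Peaks in the first 10% are called 5′ end peaks below, and those of the 8 steps between, inner peaks. Of the 5249 single-exon peaks in exactly 1 protein-coding gene of the minimum length, 1716 were 3′ end peaks (32.7%, 31.4 to 34.0) and 1128 were 5′ end peaks (21.5%, 20.4 to 22.6). Over the 8 inner steps, from 5′ to 3′, the counts were 207, 199, 187, 204, 267, 339, 413 and 589, so that the number was lowest at 187 and then became larger with each step towards the 3′ end. Last exons are long in most genes and exon lengths were not analysed here, so these counts are not densities. In the last 10% of the spans, 403 further peaks had several exon blocks and are not among the 1716; their median fold was 4.29.

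**Figure D1:**
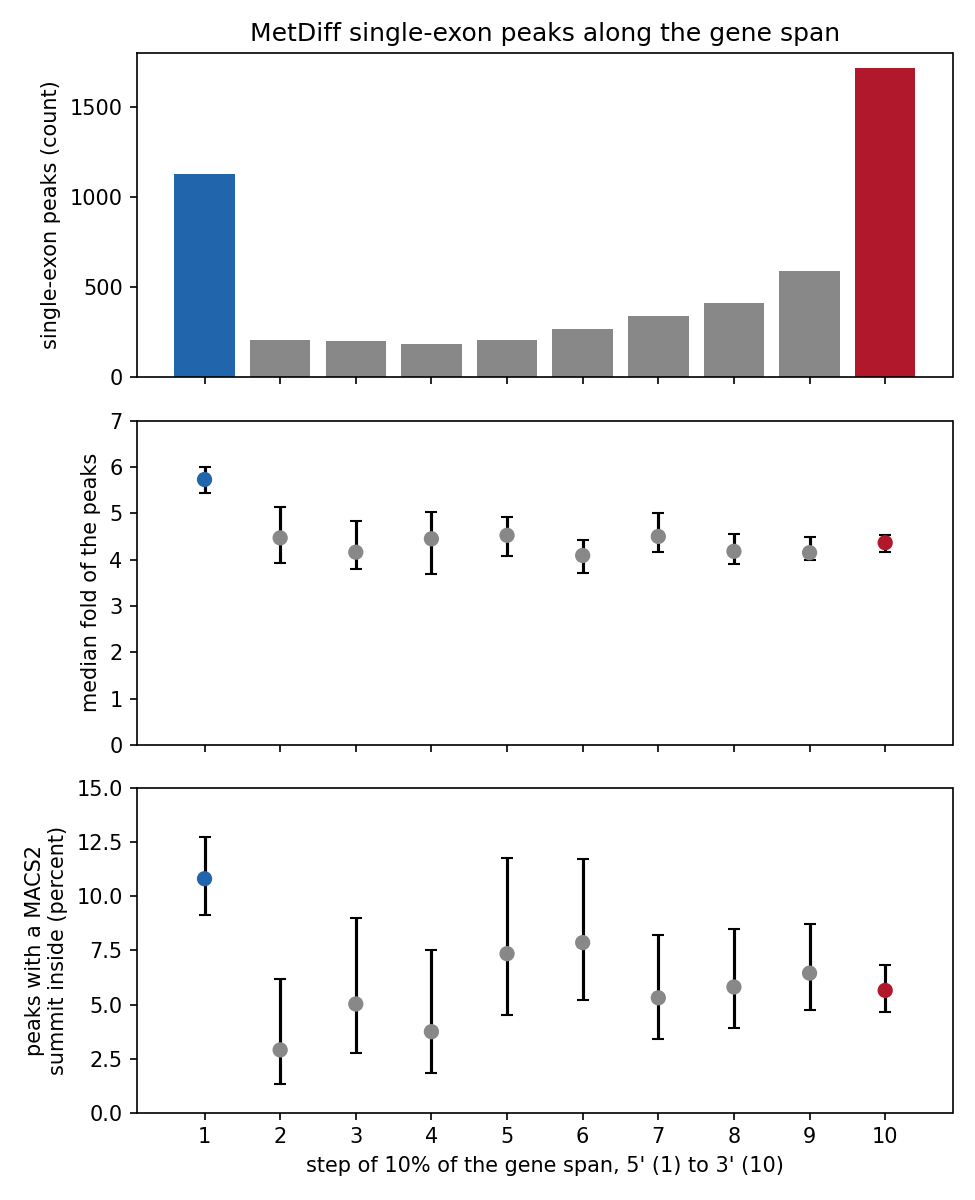
Single-exon MetDiff peaks in 1 protein-coding gene in 10 equal steps of the gene span, from the 5′ end (1) to the 3′ end (10). The bars count peaks, the points give the median fold with its 95% order-statistic interval and the share with a MACS2 summit inside with its 95% Wilson interval. The 1716 3′ end peaks (red) have a median fold of 4.37, and the 1128 5′ end peaks (blue) 5.73.

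The 3′ end peaks were numerous but not strong. Their fold ranged from 1.06 in SEC11A, a signal peptidase subunit gene, to 40 in BFAR, with a median of 4.37 and quartiles of 2.82 and 6.67. All MetDiff peaks had a median of 4.5, inner peaks 4.27 and 5′ end peaks 5.73. A fold of at least 10 was reached by 168 of the 1716 (9.79%, 8.47 to 11.3), against 230 of 1128 5′ end peaks (20.4%, 18.1 to 22.8), 270 of 2405 inner peaks (11.2%) and 12% of all MetDiff peaks. The shares of 3′ end and 5′ end peaks thus lie outside each other's counting intervals, while the median of the 3′ end peaks falls within 0.1 of that of the inner peaks. The authors' FDR was under 0.01 for 1560 of the 1716 (90.9%, 89.5 to 92.2), close to the 91.8% of all MetDiff peaks.

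BFAR, which encodes an apoptosis regulator anchored in the endoplasmic reticulum, stood apart at the top. Its peak (chromosome 16, 14668090 to 14668190, plus strand) had a fold of 40 and an FDR of 1.35e-05 and lay 1096 bases from the end of the span. The next folds were much closer together. SH3PXD2B, a scaffold gene of podosomes, had 25.4 (chromosome 5, 172337215 to 172337314) with an FDR of 0.0132, and STRN4, a striatin subunit of a phosphatase complex, had 24.7 (chromosome 19, 46720310 to 46720459). The kinase gene AKT2 had a fold of 24.1 (chromosome 19, 40234752 to 40234852), the growth factor gene PDGFA 23.9 (chromosome 7, 498098 to 498246), and CCM2, a scaffold of endothelial signalling, 23.2 at only 251 bases from its end. GTF3C3, a subunit of a general transcription factor of RNA polymerase III, had 22.6, and the decapping enhancer EDC3 22.1. ARHGAP39 had 21.6 and the semaphorin receptor PLXNB1 20.8. FBXO6, an F-box ubiquitin ligase subunit, and the transcriptional repressor NACC2 both had 20.4, while ANKS3 and the aminopeptidase DNPEP both had 20.1. The sialyltransferase ST3GAL2 closed the first 15 with 19.8. Except for BFAR, the 15 strongest folds thus lay between 19.8 and 25.4, and their distances from the gene end ranged from 251 bases in CCM2 to 16273 in ARHGAP39. All 15 peaks were short, between 100 and 150 bases. No summit of the MACS2 list, described below, lay inside any of them, where 5.65% of all 3′ end peaks held one.

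Median fold differed little with distance from the gene end, except that it was lowest in the farthest class. The midpoints lay between 8 and 35407 bases from the end of the span, with a median of 1040.5 and quartiles of 473 and 2244, and 845 of them (49.2%) were within 1000 bases. Median fold was 4.84 for the 30 peaks within 100 bases, 4.57 for 177 peaks between 100 and 250 bases, 4.53 for 259 up to 500, 4.2 for 379 up to 1000, 4.33 for 378 up to 2000, 4.53 for 366 up to 5000 and 3.75 for the 127 beyond. The peak closest to its end was one of TEN1, a telomere-capping gene, at 8 bases with a fold of 8.56. It is 451 bases long, so part of it lies beyond the span, and it reaches into the promoter window of CDK3. CYTH2 and PHIP followed at 30 and 41 bases, both with peaks on the strand opposite to the gene. The farthest was in CUX1, a homeobox gene, at 35407 bases with a fold of 3.50. The last 10% of the span covers more bases in a longer gene, and the median distance was 347.5 bases in genes of up to 10000 bases and 2416 in genes above 100000.

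**Figure D2:**
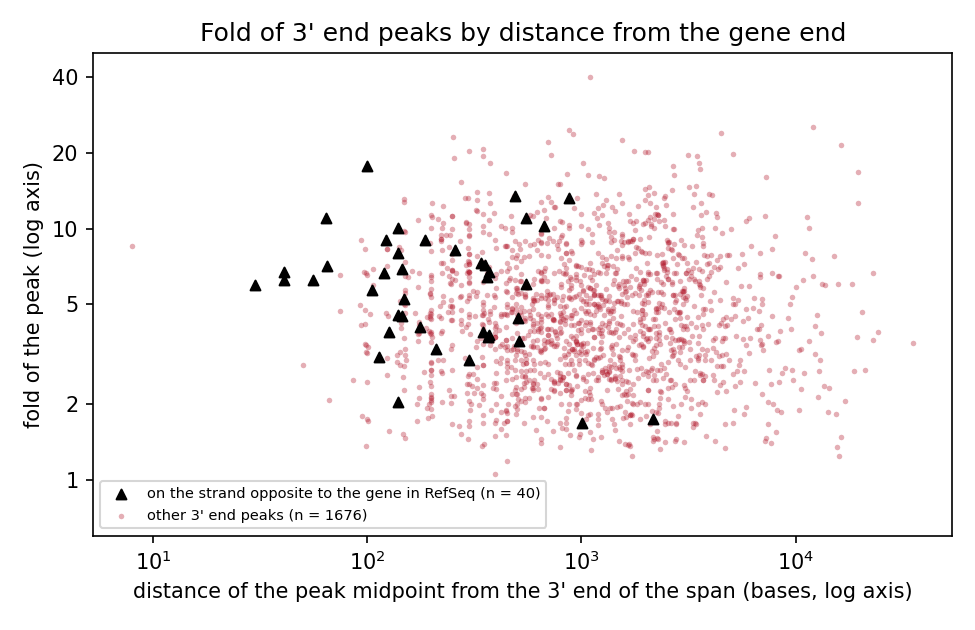
Fold of each 3′ end peak (vertical log axis) against the distance of its midpoint from the 3′ end of the gene span in bases (horizontal log axis). Triangles mark 40 peaks on the strand opposite to that of the gene in RefSeq, with a median distance of 182 bases, and red points the other 1676; BFAR is the point at a fold of 40.

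Folds on both sides of the 10% limit overlapped. Just inside were peaks of CTNS, the lysosomal cystine transporter gene, with a fold of 10.0 at 90.01% of the span, SH3BP5L with 9.39 and ARPC1B, an actin-nucleating Arp complex subunit, with 2.58, both at 90.03%. Just outside were FOXK1 with 3.69 at 89.99%, and DCTPP1 with 8.81 and RRP1 with 1.82, both at 89.93%. Between 90 and 91% there were 73 peaks with a median fold of 4.59, and between 89 and 90% there were 68 with 4.10.

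Most genes had a single 3′ end peak. By symbol, 879 of 1226 genes had 1, 250 had 2, 68 had 3, 18 had 4, 8 had 5, 2 had 6 and 1 had 9. The gene with 9 was SRCAP, which encodes a chromatin-remodelling ATPase, and its count is inflated: the peaks carry 2 Ensembl gene IDs, and pairs of them are shifted against each other by 5 bases, such as 30740509 to 30740609 and 30740514 to 30740614 on chromosome 16, both with a fold of 2.40. In all, 32 of the 1716 overlapped another, and joining overlaps left 1700 regions. SRCAP folds were low, between 1.47 and 5.57.

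Folds of peaks that followed each other differed in the next 4 genes by number of peaks, and were close in others, such as MAN2B2, a lysosomal mannosidase gene named after its values were seen, whose 4 peaks had 6.15 to 6.89. ANKRD11, a chromatin regulator gene, had 6 peaks on chromosome 16 with folds of 3.33, 4.09, 4.54, 1.48, 16.8 and 2.75 from 89278176 to 89288753, on the minus strand. Only 1 of these 6, at 89287155 to 89287305, was above 5. FOXK1, a forkhead factor gene, had folds of 2.2, 5.29, 4.80, 9.59, 7.22 and 2.46 from 5′ to 3′, highest in the middle of the row. AKT2 had 5 peaks with folds of 24.1, 7.62, 7.29, 3.16 and 3.87 in the 5′ to 3′ direction, so its highest peak was the farthest from the gene end. HS6ST1, a heparan sulfate sulfotransferase gene, showed the same order at its outer end, with 12.2, 8.05, 3.08, 2.29 and 7.91. The authors' FDR was often the same for several peaks of 1 gene ID: of the 1407 3′ end peaks whose ID had more than 1 peak, 340 (24.2%) shared their FDR exactly with another peak of that ID, against 25.8% of such peaks in the whole list.

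Within the same gene ID, 3′ end peaks were not stronger than the remaining peaks. Of 1244 gene IDs with a 3′ end peak, 388 (31.2%) had no other MetDiff peak, and 856 had at least 1. In 444 of these 856 (51.9%, 48.5 to 55.2) the highest 3′ end peak had a larger fold than the median of the others. Peaks on the strand opposite to the gene in RefSeq are included, and with the RefSeq strand alone it was 51.0% of 698 IDs. Taking the highest favours the 3′ end where it has several peaks: with the median of the 3′ end peaks the count was 397 (46.4%), and in the 600 IDs with a sole 3′ end peak it was 261 (43.5%, 39.6 to 47.5). 5′ end peaks, set against the other peaks of their IDs in the same way, were higher in 363 of 536 (67.7%, 63.6 to 71.5) by the highest and in 313 of 473 (66.2%) where the peak was the sole one.

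A direct pairing of both ends, with 3′ end peaks on the strand opposite to the gene in RefSeq included, was possible in 221 gene IDs. The median fold of the 3′ end peaks was above that of the 5′ end peaks in 76 of them (34.4%, 28.4 to 40.9) and below it in 145. Over these IDs the middle value was 4.08 at the 3′ end and 5.85 at the 5′ end. FSCN1, the actin-bundling fascin gene, and the kinase gene TYK2, named here after their values were seen, were the far end of this pattern: FSCN1 had 2.30 at its 3′ end against a median of 29.5 at its 5′ end, and TYK2 a median of 2.98 against 48.5. The opposite was seen in BCL2L1, which encodes the survival protein BCL-XL, with a median of 11 at the 3′ end against 1.68 at the 5′ end, and in the transcription factor gene STAT3 with 10.2 against 1.69.

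**Figure D3:**
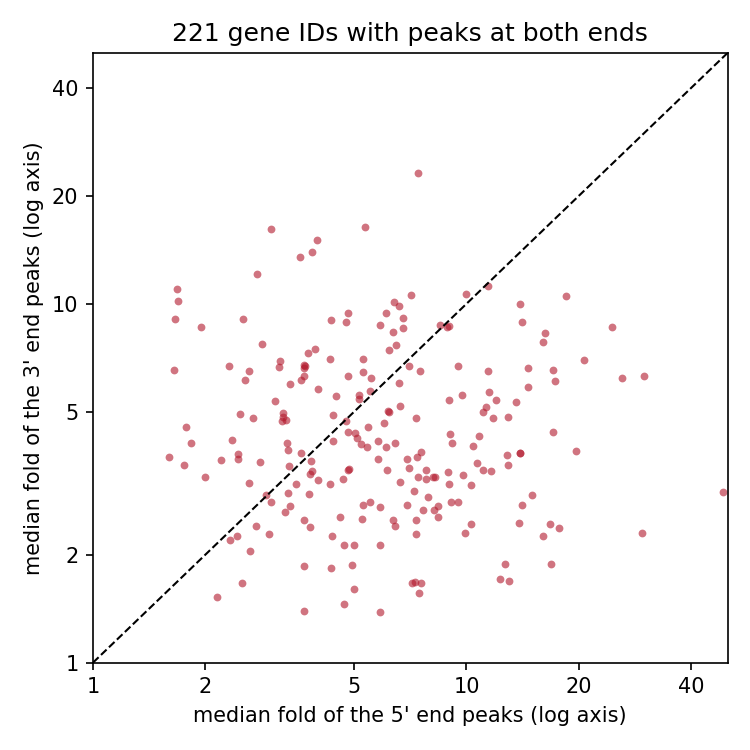
Median fold of the 3′ end peaks (vertical log axis) against median fold of the 5′ end peaks (horizontal log axis) of the same gene ID, 1 point for each of 221 IDs. The dashed line marks equal folds; 76 points lie above it and 145 below.

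Among IDs with at least 2 other peaks, EXOC2, an exocyst subunit gene, had the highest ratio of its 3′ end peak to the median of the others, 10.8. Its 3′ end peak (chromosome 6, 485803 to 485952, minus strand) had a fold of 19.6 and an FDR of 1.62e-09, and its other peaks had 2.00 and 1.64. SH3PXD2B had a ratio of 8.47, with 3′ end folds of 25.4 and 4.40 against 3.00, 1.67 and 3.00 elsewhere, all 5 with the same FDR of 0.0132. The ratio was 7.37 for STRN4, with 24.7 against 5.50, 3.35 and 2.16. B4GALT7, a galactosyltransferase gene of proteoglycan synthesis, had 18.2 against 2.55 and 2.59, and ST3GAL2 had 19.8 against 3.12, 7.64 and 2.57. In all 5 the 3′ end peak was the highest of the gene ID, which follows largely from the choice of the highest ratios.

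At the other extreme the 3′ end peak was weak while another part of the transcript was strong. TAFAZZIN, a cardiolipin-remodelling gene, had 2.04 at its 3′ end against 28.2 and 3.41. PPP1R37, a phosphatase regulator gene, had 2.37 against 15.3 and 20.1, but these other 2 peaks overlap each other at its 5′ end (chromosome 19, 45093174 to 45093274 and 45093177 to 45093271). The exonuclease-domain gene REXO4 had 1.37 against 10.8, 4.18 and 9.30. In USP5, a deubiquitinase gene, the 3′ end peak had 2.31, and the others had 1.53 and 25.7, so it was not the lowest there. NCAPD3, a condensin subunit gene, had 1.45 at its 3′ end against 7.93, 13.9 and 6.65.

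NES and TRMT5, the genes named by the study, differed in where their peaks lay. NES, the gene of nestin, an intermediate filament protein, had 1 3′ end peak, at 156669161 to 156669459 on chromosome 1, minus strand, 547 bases from the end. This peak had the highest NES fold, 15.1, while the other 7 had between 2.80 and 8.19, and no summit of the MACS2 list lay inside it. TRMT5, the depleted methyltransferase gene, had 0 3′ end peaks; its 3 peaks had midpoints at 19.3, 39.1 and 60.8% of its span.

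Summits of the MACS2 list, the second list of the series, lay inside few of the peaks. A summit was inside 97 of the 1716 (5.65%, 4.66 to 6.85), against 122 of 1128 5′ end peaks (10.8%, 9.13 to 12.8), 5.78% of the inner peaks and 7% of all MetDiff peaks. Within 150 bases of the midpoint there was a summit at 291 (17.0%, 15.3 to 18.8), where 27.1% of 5′ end peaks and 22.4% of all MetDiff peaks had one. The same libraries may underlie both lists. AKT2 had the strongest summit, with −log10 q of 70.8, in its peak at 40233158 to 40233507 (fold 7.62) and not in the AKT2 peak with the highest fold. NACC2 followed with 68.1 in a peak with a fold of 11.6, and CD151, a tetraspanin gene of cell adhesion, had 57.0 in a peak with 7.04. The actin crosslinker gene ACTN4 had 42.9 (fold 6.22), the redox protein gene NXN 41.8 (13) and RNH1, the ribonuclease inhibitor gene, 41.1 (13.3). Summits of 48.6 and 42.4 lay in peaks placed in TMED2 and MZT2B, and both of these peaks ran on the strand opposite to the gene.

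Peak length moved with both measures. Of the 1716 peaks, 978 (57.0%) were 100 or 101 bases long and 346 (20.2%) were 150 or 151, and the whole range was 95 to 695. Median fold was 4.00 in the 1023 peaks of up to 101 bases, 4.57 in the next 387, 5.22 in 163 of up to 201 bases and 6.18 in the 143 longer ones. A summit lay inside 15 of the 1023 shortest (1.47%) and inside 52 of the 143 longest (36.4%, 28.9 to 44.5). A longer peak offers more bases for a summit to fall in. In each of the 4 length classes 5′ end peaks had the higher median fold, with 5.25, 5.60, 6.33 and 7.11. The longest class is open, with lengths up to 695 bases at the 3′ end and 698 at the 5′ end. Whether length accounts for the difference between the ends was not tested.

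**Figure D4:**
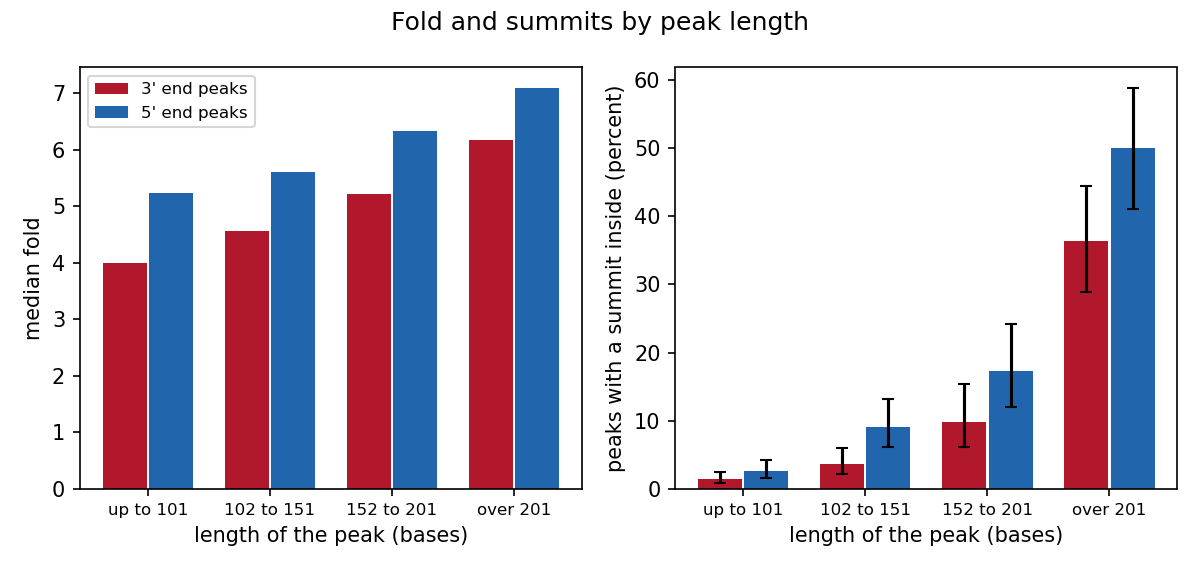
Median fold (left) and share of peaks with a MACS2 summit inside, with 95% Wilson intervals (right), for 3′ end peaks (red) and 5′ end peaks (blue) in 4 classes of peak length in bases. Both measures are larger in longer peaks, and the 5′ end values are the higher ones in every class.

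The summits did not fall around the midpoint of the peak but to its 5′ side. The nearest summit was within 500 bases for 403 of the 1716 peaks. It was upstream of the midpoint on the strand of the peak in 334 of them (82.9%, 78.9 to 86.2) and downstream in 69, with a median position 105 bases upstream. Peaks on the plus strand (163 of 194 upstream) and on the minus strand (171 of 209) both showed this, so its direction went with the strand and not with the chromosome. 5′ end peaks (331 of 375) and inner ones (488 of 572) had it as well.

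**Figure D5:**
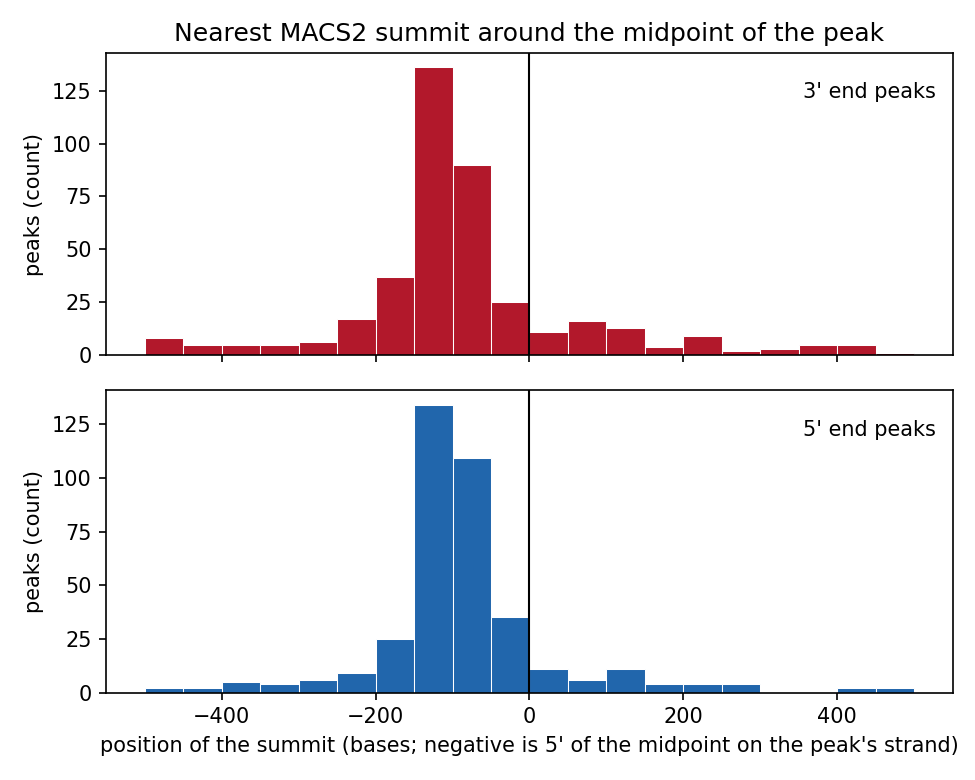
Position of the nearest MACS2 summit relative to the midpoint of the peak in bins of 50 bases, for the 403 3′ end peaks (top) and 375 5′ end peaks (bottom) with a summit within 500 bases. Negative values are on the 5′ side along the strand of the peak; 334 and 331 of the peaks lie there.

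The 40 peaks on the strand opposite to that of RefSeq's gene did not share this shift. RefSeq's promoter table gave a strand for the gene of 1399 of the 1716 peaks, the same as that of the peak in 1359 and the opposite in 40, and for the other 317 peaks the strand of the gene was not in it. On the gene's own strand these 40 lie at its start. Their median distance from that edge of the span was 182 bases, against 1096 for the 1359 on the same strand, and their median fold was 6.22 (95% order-statistic interval 4.50 to 7.09), against 4.36 (4.16 to 4.54). Of the 16 with a summit within 500 bases, the summit was upstream on the strand of the peak in 2 and downstream in 14; on the strand of RefSeq's gene the 14 are upstream. Among the 1359, it was upstream in 266 of 311.

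Promoter windows of genes that run the same way as the peak overlapped 13 of the 40, some only at the edge of the peak, and the window of the gene in whose span they lay overlapped 14. The strongest was the SMYD4 peak shown above (chromosome 17, 1829752 to 1829852, plus strand), with a fold of 17.8, with its midpoint 203 bases before the start of RPA1, a subunit of the single-strand DNA binding complex RPA; SMYD4 itself, a SET-domain gene, is on the minus strand. The FADS2 peak had 13.2 and lay near a start of its neighbour FADS1, both fatty acid desaturase genes. The PSME4 peak, in a proteasome activator gene, had 6.23, with its midpoint 176 bases before the start of ACYP2. The NCBP2 peak, in a cap-binding protein gene, had 6.22, with its midpoint 187 bases before that of NCBP2AS2. A peak placed in RAB11FIP2, with a fold of 13.5, reached into the window of the non-coding RNA CASC2. The authors' gene IDs for these peaks were not matched to names here, so the gene names come from position alone. An ID may belong to a neighbour: the opposite-strand peak placed in ARMC6 shares its ID with peaks placed in SUGP2.

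By function, 3′ end peaks were counted in 14 gene lists, and 13 of the 14 held at least 1. Of 16846 protein-coding genes of at least 5000 bases, 1226 had one (7.28%), and of the 3586 of these genes with any MetDiff peak, 34.2% did. That second share is the better background for the groups below, since a gene with no peak at all may not be expressed. Each group is small, and its share moves by several points with a single gene.

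Genes that act on mRNA 3′ ends had shares near the background. Of 17 cleavage and polyadenylation factor genes, 8 had a MetDiff peak and 2 a 3′ end peak: the scaffold SYMPK with a fold of 6.17 and WDR33, which binds the poly(A) signal, with 2.87. For poly(A) binding and deadenylation it was 9 and 3 of 20, with 11.1 in the deadenylase PARN, 9.27 in LARP1, which binds mRNAs of the translation machinery, and 2.27 in the deadenylase CNOT6. Proteins that bind 3′ untranslated regions had 7 and 2 of 24, ELAVL1 with 3.10 and the double-strand binder STAU1 with 2.53. Of 13 microRNA machinery genes, 3 had a peak and 1 a 3′ end peak, DGCR8, the partner of Drosha, with 3 of them and a highest fold of 6.20. In these 4 groups together with decapping below, the share among genes with a peak was between 25 and 40%, near the background of 34.2%.

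Nonsense-mediated decay and the exon junction complex had 10 of 15 genes with a peak and 4 with a 3′ end peak. The helicase UPF1 had 4 such peaks and a highest fold of 11.4 (chromosome 19, 18865417 to 18865667), SMG5 8.52 and the kinase SMG1 6.25. In decapping and decay, EDC3 (22.1) and the decapping scaffold EDC4 (6.23) were the 2 of 19, out of 5 with any peak. Of the 7 genes of tRNA guanosine methylation beside the anticodon and of wybutosine synthesis, 1 had a MetDiff peak, TRMT5, and 0 a 3′ end peak.

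Among structural genes, 8 of 23 of the actin and intermediate filament cytoskeleton had a 3′ end peak, out of 20 with any. NES was first with 15.1, then the cytolinker PLEC with 7.87 and ACTN4 with 6.22, and the median over their 10 peaks was 3.58. Extracellular matrix and adhesion genes had 7 of 25, out of 18 with any, led by the proteoglycans AGRN with 18.3 (chromosome 1, 1052487 to 1052686) and HSPG2 with 8.29, and by the integrin ITGA3 with 6.76. The secretory pathway had 4 of 21, out of 12: the lectin chaperone CANX had 12.2, the calcium-binding chaperone CALR 4.36 and the disulfide isomerase PDIA4 4.10. Lysosomal genes had 4 of 20, out of 13, with 9.82 in PSAP, the precursor of the saposins, 8.25 in the membrane protein LAMP1 and 2.10 in the protease CTSZ.

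Glycolysis had 3 of 15 genes with a 3′ end peak, out of 11 with any (27.3% of these, against the background of 34.2%). They were GPI with 8, PKM with 4.74 and PFKL with 1.83. Splicing factors and hnRNPs had the lowest share of the larger groups, 4 of 26 out of 18 with any (22.2% of these, against 34.2% as background). Folds were low, with 4.22 in HNRNPM, 3.24 in U2AF2 and 1.80 in HNRNPF. The median over their 4 peaks was 2.52, against 4.37 over all 3′ end peaks. Both the share and this median rest on only 4 genes. Chromatin regulators had 7 of 25, out of 17 (41.2%), with 11.9 in the methyltransferase KMT2D, 7 in the deacetylase HDAC5 and 6 in the remodelling subunit ARID1A. HNRNPM and HNRNPF had a summit inside their peaks, with −log10 q of 21.1 and 23.7, although their folds were under the median.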

How the data were processed

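The 2 peak lists used cover the whole series; the sources used here do not say how libraries were pooled or callers set. STAR 2.7.1 and MACS2 2.2.5 with GRCh38 are named, per the submitters' processing notes. The deposited MetDiff list has no header: its p-value, log10 of the FDR and a ratio (fold) per peak were identified from the values and the layout. The deposited MACS2 list gives summits with a −log10 value, read as that of a q-value. Peaks were placed in RefSeq gene spans (GRCh38.p14) with Python 3.11.15 and pandas 2.3.3; coordinates count from 1. Placing was tested on simulated data. Members and gene lists were chosen with earlier results of these data known, and genes named follow a written rule (strongest folds and summits, most peaks, extreme ratios within a gene ID, the 3 strongest of each list, the limit and the gene end). Genes named for a printed sequence, the opposite strand, the lowest fold, the farthest peak or the pairing of both ends were chosen after their values were seen. Alternatives changed the share of the span, the gene length, the sole-gene rule, the FDR, the summit overlap and the strand. Intervals cover counting error only.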

Additional observations from a re-analysis of the deposited data

How the results depend on the processing

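Of 54 recomputed values, 50 stayed within 1.5 times the count or within the 95% interval of the value reported. The number of 3′ end peaks was 1216 with the last 5% of the span and 2305 with the last 20%, and 1359 on the RefSeq strand alone. The median fold difference of 3′ end peaks minus other single-exon peaks, -0.335, became 0.095 (chosen after seeing the data) with the 5′ end peaks left out of the others, so its sign rests on them. The share with a summit, 5.65%, was 17.0% within 150 bases and 3.85% with −log10 q of at least 10. The share of gene IDs with the higher 3′ end peak, 51.9%, was 46.4% with the median of several peaks, an alternative added after seeing the data; the first counts the highest of several. No paired analysis was possible because the lists hold no value per library, and for the same reason no replicate could be left out. Depth limits could not be read.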

Other observations

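Summits of the MACS2 list were placed along genes without use of the MetDiff list. Of 2345 summits in exactly 1 protein-coding gene of the minimum length with a RefSeq strand, 513 (21.9%) lay in the last 10% of the span and 384 (16.4%) in the first 10%, and the next 3 steps of 10% from the 5′ end held 98, 119 and 128. The median −log10 q was 13.2 in the last 10% and 14.2 in the first. Spans include introns, so these are counts and not densities.

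The 3′ end peaks were found on 23 chromosomes, all but the mitochondrial one among those with MetDiff peaks. Chromosome 19 had the most, 198 of its 1014 peaks (19.5%), followed by chromosome 17 with 169 of 889 (19.0%). The share was lowest on chromosome 14, with 32 of 310 peaks (10.3%), and highest on chromosome 13, with 14 of only 56 (25%).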
